A study of Mus musculus with 6 samples.

Results

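Chemokine ligands are the small secreted proteins that steer white blood cells through the spleen, and 30 of the 26452 genes in the deposited expression table are chemokine ligand genes. They were chosen by name alone, as symbols made of Ccl or Cxcl and a number, with an optional letter, plus Xcl1 and Cx3cl1, and all 30 had a nonzero value in at least 1 library. Spleen RNA came from male mice aged 10 weeks. Libraries KO451, KO452 and KO457 (n = 3) are from Was -/- mice of the line 129S6/SvEvTac-Wastm1Sbs/J. Libraries WT453, WT454 and WT455 (n = 3) are from wild-type 129S6/SvEvTac mice. No treatment is named for either group. Was encodes the Wiskott-Aldrich syndrome protein, which drives actin assembly in blood cells, and the allele is carried by all cells of the mouse rather than by a chosen cell type. The comparison is of spleen RNA between these genotypes. The labels do not say in words that each library is a separate mouse, so p-values describe library-to-library spread, which may be technical.

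Chemokines are grouped by the spacing of their first cysteines into CC, CXC, XC and CX3C families, and they act through G protein-coupled receptors on the cells they attract. Homeostatic members, made by stromal cells, hold the lymphoid compartments of the spleen together: Ccl19 and Ccl21a gather T cells and dendritic cells that carry Ccr7, and Cxcl13 gathers B cells that carry Cxcr5. Inflammatory members are made by leukocytes and stroma upon stimulation and recruit neutrophils, monocytes, effector T cells or eosinophils. Atypical receptors bind chemokines without the usual signal and take them out of circulation.

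No chemokine ligand passed the test over all genes between knockout and wild-type spleens. Values are normalized counts, that is, reads divided by the library's size factor, and the test was limma on log2(normalized count + 1) with Benjamini-Hochberg adjustment and a threshold of 0.05. Of 30 members, 29 had a mean normalized count of at least 1 and were tested, and Cxcl3 was not. The smallest adjusted p among the members was 0.373 (limma), and 0 of 29 were called, where 0.00906% of all 22071 genes tested were called. At an unadjusted limma p under 0.05 there was 1 member, Ccl8, which is 3.45% of those tested, against 11.0% of all genes tested (5.50% higher and 5.46% lower in the knockout). The authors' deposited table lists none of the 30 members at an FDR below 0.05, against 3.58% of all genes. The authors' deposited table gives a p under 0.05 to 4 members, Ccl8, Ccl3, Cxcl16 and Ccl22, and to 14.0% of all genes. Of the 29, 11 were higher and 18 lower in the knockout, with a median log2 difference of -0.20, and the median over all genes tested was -0.03. Without KO451 the median of the ligands was 0.24. It was -0.02 without WT453 and -0.03 without WT455, so the median has no stable direction.

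The libraries held between 30661759 and 38402758 reads in genes, so a count of 0 allows up to 3 reads, or 0.0781 to 0.0978 CPM (reads scaled to the library's total in genes), for counting error only. Was had normalized counts of 508, 407 and 409 in the knockout and 4142, 6561 and 6279 in the wild-type libraries, and it was lower in every knockout library (log2 difference -3.66, limma adjusted p = 0.0117). Genes of spleen leukocytes were present: the B cell gene Cd79a ranged from 14735 to 43439 normalized counts and Spic, a transcription factor of red pulp macrophages, from 1315 to 7373. The stromal list, 13 of 14 measured, summed to 105 to 213 CPM in the knockout and 324 to 397 CPM in the wild type, with 2 to 5 genes at 0 in each library. Its highest genes were Thy1 (2618 to 7294 normalized counts) and Cr2 (1175 to 5199), which T and B cells also express. Pdpn, Madcam1 and Tlx1 each stayed between 0 and 28.9, and Col1a1 was above 57.1 in WT453 only. Tcf21 alone of the list was without overlap, or 7.69% against 19.5% of all genes tested. It had 13.9, 14.0 and 15.6 normalized counts in the knockout and 0, 8.16 and 3.12 in the wild type (log2 difference 2.21, limma adjusted p = 0.431). WT453 stood apart. Its 10 neutrophil markers summed to 92632.5 CPM against 5426 to 57266 in the other libraries, its 10 immediate early genes to 1792 against 265 to 592, and its red pulp macrophage markers to 1412 against 4031 to 8791.

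**Figure D1:**
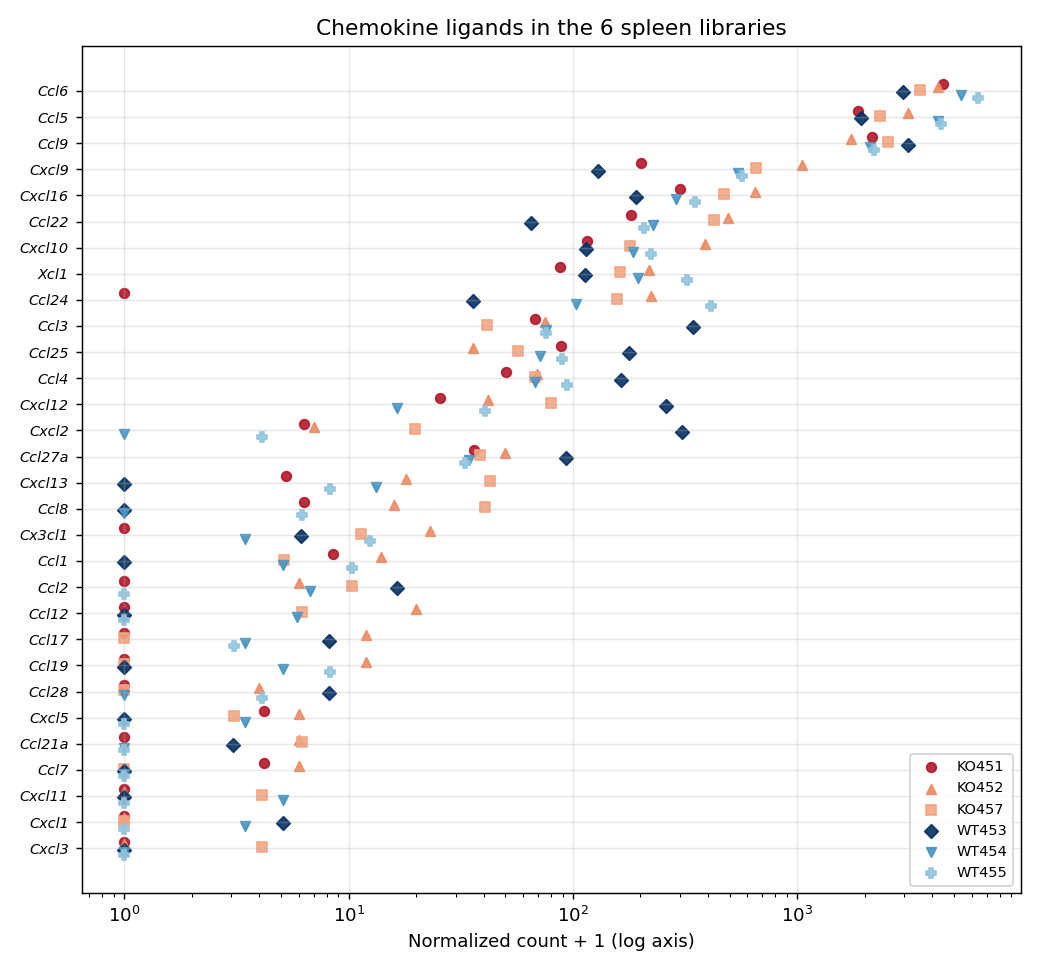
Normalized count plus 1 (log axis) of the 30 chemokine ligands, ordered by their mean, with a point for each of the 6 libraries. Ccl6, Ccl5 and Ccl9 lie at 1745 or above in every library, and KO451 has no read for Ccl24.

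Most chemokine ligand counts in these 6 libraries came from 3 genes of the CC family. Ccl6, Ccl5 and Ccl9 together made up between 72.6% (KO452) and 87.9% (KO451) of the normalized counts of all 30 ligands. Per kilobase of exon, Ccl5 was highest with a mean of 3098 normalized counts, followed by Ccl6 (2501), Ccl9 (759.9), Xcl1 (349) and Cxcl9 (174). All ligands together took 261, 375 and 299 CPM in KO451, KO452 and KO457, and 302, 432 and 484 CPM in WT453, WT454 and WT455. These sums overlapped between the groups. In the annotation of GRCm38, Ccl5 lies at chr11:83525778-83530518, Ccl9 at chr11:83572919-83578636 and Ccl6 at chr11:83587882-83593087, all protein-coding and on the minus strand.

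Ccl5, made by T cells and natural killer (NK) cells, had normalized counts of 1868, 3110 and 2349 in the knockout and 1915, 4231 and 4374 in the wild-type libraries. WT454 and WT455 were high and WT453 lay within the knockout range. The difference on the log2 scale was -0.46 ± 0.37 (SE) with a limma adjusted p of 0.680, and -0.85 without WT453 (limma adjusted p = 0.190). T cell markers, of which 10 of 10 were measured and none was at 0, summed to 521 to 1057 CPM in the knockout and 626 to 1635 CPM in the wild-type libraries. NK cell markers, 8 of 8 measured, summed to 167 to 290 and 229 to 462 CPM. All 10 T cell and all 8 NK cell markers were lower on average in the knockout, and 0 passed the test. Of all genes tested, 11552 of 22071 were lower. Groups without overlap were seen in 2 NK cell markers (25%) and 0 T cell markers, against 9.94% of all genes tested. Nkg7 alone of both lists is under an FDR of 0.05 in the authors' deposited table (0.0490), where 1.44% of all genes are listed as lower. The part of these markers in the Ccl5 values was not tested. In whole tissue, fewer cells of a type and less RNA per cell cannot be told apart.

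Ccl6, a chemokine of myeloid cells, had normalized counts of 4478, 4227 and 3535 in the knockout against 2961, 5351 and 6386 in the wild type. The wild-type libraries bracketed the knockout ones, and the log2 difference was -0.20 ± 0.31 (SE, limma adjusted p = 0.847). Ccl9, its neighbour on chromosome 11, had 2164, 1745 and 2533 against 3134, 2109 and 2199. Here WT453 was highest and the groups overlapped, with a log2 difference of -0.20 ± 0.24 (SE, limma adjusted p = 0.783). The gene models of Ccl6 and E230016K23Rik overlap on opposite strands, and without a stated strand setting their reads may be shared.

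Ccl3 and Ccl4, inflammatory CC ligands made by activated macrophages and lymphocytes, lie next to each other on chromosome 11. Ccl3 had normalized counts of 66.5, 74.0 and 40.5 in the knockout and 343, 75.1 and 74.8 in the wild type. Every knockout library was below every wild-type library, though KO452 and WT455 were nearly equal and WT453 alone stood well above the rest. On the log2 scale the difference was -1.08 ± 0.65 (SE, limma adjusted p = 0.556) and -0.35 without WT453. Ccl4 had 49.3, 68.0 and 66.5 against 163, 66.9 and 93.5, again with WT453 highest, and the groups overlapped (log2 difference -0.72 ± 0.43 SE, limma adjusted p = 0.554; -0.38 without WT453). Groups without overlap were seen in 2 of 29 members, Ccl3 lower and Ccl8 higher in the knockout, or 6.90%, against 19.5% of all genes tested (9.54% higher and 9.94% lower).

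Grouped for this report, the 5 inflammatory CC ligands Ccl3, Ccl4, Ccl5, Ccl6 and Ccl9 were all lower on average in the knockout. Their log2 differences ran from -1.08 to -0.20, and 0 passed the test. Of all genes tested, 11552 of 22071 were lower. Ccl6 was at 0.028 without WT455. The other 4 stayed lower without any single library, though Ccl9 was at -0.02 without WT453. Inflammatory CC ligands outside this group went both ways, with Ccl7, Ccl8 and Ccl12 higher on average and Ccl2 and Ccl24 lower. Ccr1, a receptor of several of the 5 on neutrophils and monocytes, was not called either. It ranged from 956 to 3179 normalized counts in the knockout and reached 5132 in WT453, against 943 and 1014 in WT454 and WT455.

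**Figure D2:**
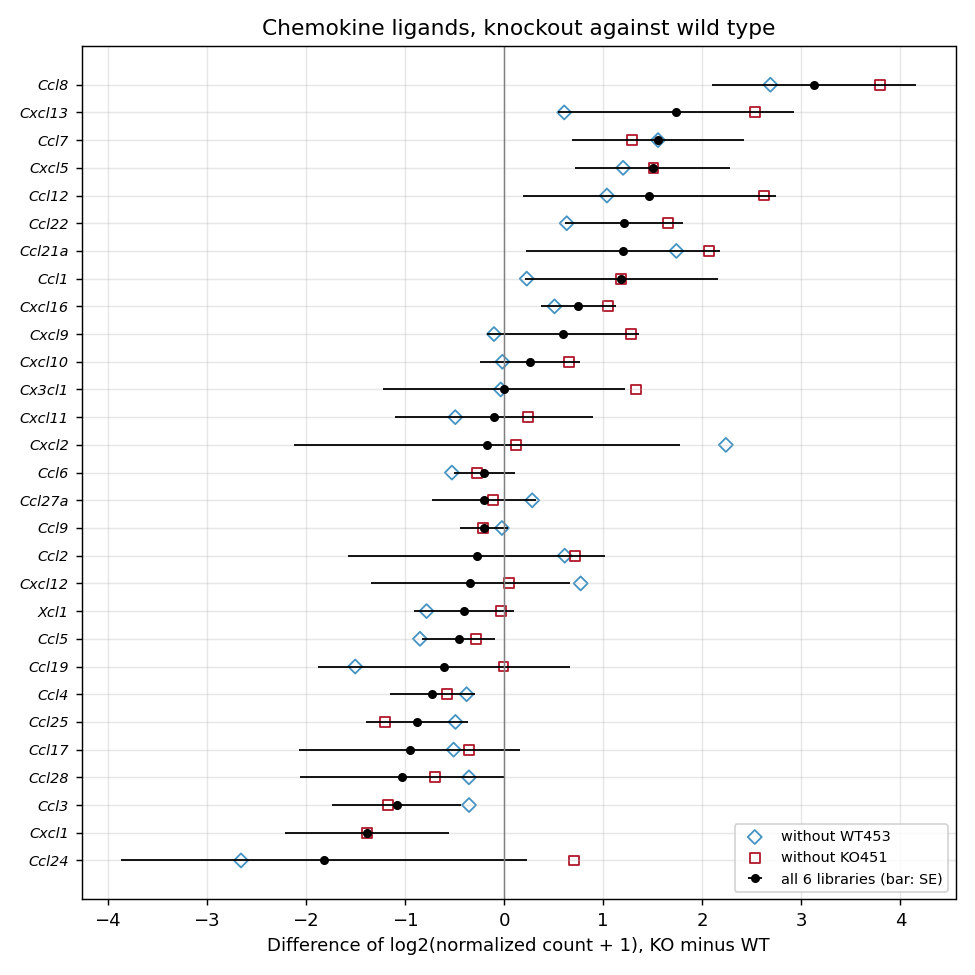
Difference of log2(normalized count + 1), knockout minus wild type, for the 29 ligands tested; black points with bars are estimates with their SE from all 6 libraries, open diamonds omit WT453 and open squares omit KO451. Ccl8 has the largest positive difference (3.13), and Ccl24 moves from -1.82 to 0.70 when KO451 is left out.

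Of the neutrophil-attracting ligands Cxcl1, Cxcl2, Cxcl3 and Cxcl5, only Cxcl2 exceeded 18.7 normalized counts in any library, and it did so in WT453 alone. These 4 genes act through Cxcr2 and lie within chr5:90759360-90905938, and Cxcl1 to Cxcl3 are textbook targets of NF-kappaB. The promoters that hold a kappaB-like motif are shown because Cxcl1, Cxcl2 and Cxcl3 share it and yet differed in level, and because Ccl9, which also holds it, was abundant in every library. Of the 30 members, 22 have a promoter in the RefSeq table (GRCm38.p6). GGG, any 2 bases and TTTCC, on either strand, occurred in the 200 bases before the start in 4 of them (18.2%). The share of all 27025 genes with a promoter was 1.15%. Of the 4, Cxcl1, Cxcl2 and Cxcl3 lie in the stretch of chromosome 5 given above, so the matches may not be independent, and no test was made. TATAAA was found in 7 of the 22 (31.8%, 10.6% of all), TTCNNNGAA in 1 (4.55%, 5.62% of all) and GAAA, any 2 bases and GAAA, in 0 (2.33% of all), both strands searched each time. Each sequence below is the 200 bases before the transcript start, 5′ to 3′ on the gene's strand, with capitals for matches to the kappaB-like motif or to TATAAA on either strand. In Ccl9, 2 matches to TATAAA on opposite strands overlap.
Cxcl1: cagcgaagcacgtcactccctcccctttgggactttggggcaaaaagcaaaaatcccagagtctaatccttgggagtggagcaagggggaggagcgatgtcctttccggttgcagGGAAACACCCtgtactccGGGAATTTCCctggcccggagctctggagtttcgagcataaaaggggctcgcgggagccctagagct
Cxcl2: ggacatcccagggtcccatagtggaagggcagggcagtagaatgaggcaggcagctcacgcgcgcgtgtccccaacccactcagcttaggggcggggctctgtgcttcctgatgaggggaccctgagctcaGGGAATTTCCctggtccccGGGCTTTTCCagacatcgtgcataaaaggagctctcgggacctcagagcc
Cxcl3: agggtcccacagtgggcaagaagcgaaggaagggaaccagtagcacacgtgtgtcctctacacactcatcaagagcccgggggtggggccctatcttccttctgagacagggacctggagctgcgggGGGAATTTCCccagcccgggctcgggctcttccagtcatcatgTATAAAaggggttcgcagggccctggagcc
Ccl9: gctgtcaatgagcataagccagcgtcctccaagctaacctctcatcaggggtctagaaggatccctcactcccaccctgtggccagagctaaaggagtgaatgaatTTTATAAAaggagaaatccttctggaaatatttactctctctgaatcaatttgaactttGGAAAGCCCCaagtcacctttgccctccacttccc
These windows are chr5:90891041-90891240 (plus strand) for Cxcl1, chr5:90903671-90903870 (plus) for Cxcl2, chr5:90785901-90786100 (plus) for Cxcl3 and chr11:83578637-83578836 (minus) for Ccl9. The Cxcl2 window ends 28 bases before the RefSeq start and the Cxcl1 window 4 bases before it, at the start of the GENCODE model. A match describes the letters, not binding.

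Cxcl2 had normalized counts of 5.36, 6 and 18.7 in the knockout and 304, 0 and 3.12 in WT453, WT454 and WT455. A single library holds nearly all of it. Its log2 difference was -0.17 ± 1.95 (SE, limma adjusted p = 0.986) with all libraries and 2.24 without WT453 (limma adjusted p = 0.259), and its sign also changed without KO451 or KO452, so that it has no stable direction. Cxcl1 gave 4 reads in WT453, 3 in WT454 and 0 elsewhere, and Cxcl3 gave 3 reads in KO457 only. Cxcl5 gave 3, 5 and 2 reads in the knockout and 0, 3 and 0 in the wild type (log2 difference 1.499, limma adjusted p = 0.518). Of the genes shown with the kappaB-like motif, Cxcl2 and Ccl9 had their highest value in WT453, as did Cxcl1 at 4 reads. Cxcl3 was at 0 there. WT453 also held the highest value of 31.7% of all genes tested. In the same library Cxcr2, the receptor on neutrophils, reached 8725 normalized counts, against 2735 and 3187 in the other wild-type libraries and 2017 to 6983 in the knockout. The immediate early gene Fos had 8126 normalized counts in WT453 and 262 to 641 elsewhere. The part of the neutrophil and immediate early genes in the Cxcl2 and Ccl3 values of WT453 was not tested.

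Cxcl9 and Cxcl10, which interferon gamma induces and which draw Cxcr3-bearing effector T and NK cells, were spread widely in both groups. Cxcl9 had normalized counts of 200.5, 1053 and 653 in the knockout and 129, 543 and 566 in the wild type. KO452 was highest, WT453 was lowest and the groups overlapped. Its log2 difference was 0.60 ± 0.77 (SE, limma adjusted p = 0.799), and -0.10 without WT453. Cxcl10 had 115, 388 and 179 against 113, 184 and 221, with the same library on top, and the groups overlapped (0.26 ± 0.50 SE, limma adjusted p = 0.885; -0.02 without WT453 and -0.22 without KO452). Cxcl11, which the annotation lists as a polymorphic pseudogene, gave 3 reads in KO457, 5 in WT454 and 0 in the others.

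Genes on the input side of these ligands were not called either. Ifng itself ranged from 21.4 to 40.5 in the knockout and 48.1 to 61.3 in the wild type, with a log2 difference of -0.74 ± 0.43 (SE, limma adjusted p = 0.545). Of 7 genes of the interferon gamma list 0 passed the test. The receptor chain Ifngr1 alone had an unadjusted limma p under 0.05, or 14.3% against 11.0% of all genes tested. It had 2830, 3019 and 2858 normalized counts against 3790, 4366 and 3881 (log2 difference -0.46, limma adjusted p = 0.408). Ifng, Ifngr1 and Ifngr2 were lower in every knockout library, or 42.9% of the list, against 9.94% of all genes tested. Ifngr2 had 2477, 2959 and 3140 against 4802, 3188 and 3235, so KO457 and WT454 were nearly equal (log2 difference -0.37, limma adjusted p = 0.573). The highest gene of that list was the kinase Jak1, with 13392, 14717 and 11185 against 5132, 19752 and 18141, so that WT453 was lowest here too. Cxcr3 had 593, 1202 and 876 against 394, 971 and 1420. The gene models of Cxcl10 and Art3 overlap on opposite strands.

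Ccl22 and Cxcl16 had their highest values in KO452 and KO457 and their lowest in WT453. Ccl22, made by dendritic cells and a ligand of Ccr4 on regulatory and helper T cells, had normalized counts of 181, 491 and 424 in the knockout and 63.9, 227 and 206 in the wild type. KO451 lay inside the wild-type range. The estimated log2 difference was 1.21 ± 0.60 (SE, limma adjusted p = 0.504), 0.63 without WT453 and 1.66 without KO451, with an FDR of 0.266 in the authors' deposited table. Ccl17, the other Ccr4 ligand, gave 0 to 11 reads per library. Ccr4 ranged from 209 to 266 in the knockout and 96.9 to 219 in the wild type.

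Cxcl16, a membrane-bound chemokine of macrophages and dendritic cells that binds Cxcr6, had normalized counts of 298, 650 and 470 in the knockout and 191, 286 and 348 in the wild type. Its log2 difference was 0.75 ± 0.38 (SE, limma adjusted p = 0.509), and KO451 overlapped WT455. Its FDR in the authors' deposited table is 0.290. Cxcr6 had 244, 385 and 314 against 256, 634 and 765 (log2 difference -0.69, limma adjusted p = 0.582). Red pulp macrophage markers, 10 of 10 measured, summed to 4934, 8791 and 5128 CPM in the knockout and 1412, 4031 and 4897 CPM in the wild type. Dendritic cell markers, 8 of 8 measured, summed to 122 to 188 and 124 to 192 CPM. Of the macrophage markers 10 were higher on average in the knockout and 0 passed the test. In every knockout library 6 of them were higher (60%), against 9.54% of all genes tested. Of the dendritic cell markers 4 were higher and 4 lower, and 0 passed the test. Zbtb46 alone of these was without overlap, or 12.5%, and it was higher in the knockout. Cd5l and Zbtb46 have an FDR of 8.34e-05 and 0.00290 in the authors' deposited table, which lists 2.14% of all genes as higher below 0.05. Neither list had a marker at 0, and their part in the values of Ccl22 and Cxcl16 was not tested.

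**Figure D3:**
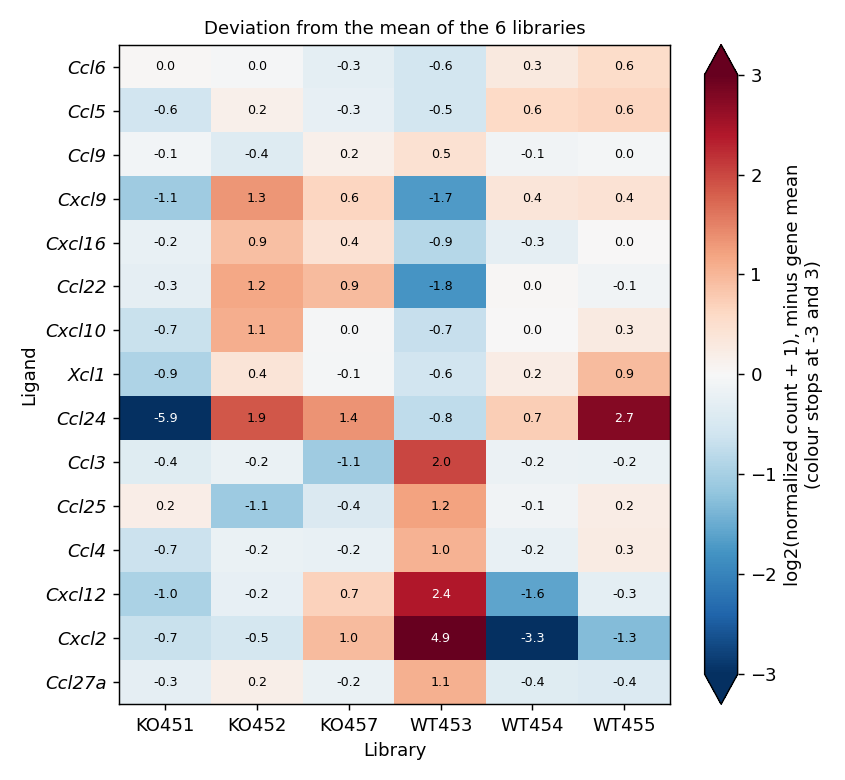
Heat map in log2(normalized count + 1) units of how far each library lies from the 6-library mean, for the 15 ligands with a mean normalized count of at least 30. Cxcl9, Cxcl16 and Ccl22 are lowest in WT453, whereas Ccl3, Ccl4, Cxcl12 and Cxcl2 are highest there.

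Across all ligands the highest values lay mostly in KO452 and WT453, 1 library of each genotype. KO452 held the highest value of 11 of 29 members (37.9%), whereas it held the highest value of 10.4% of all genes tested. WT453 was highest in 10 members (34.5%, 31.7% of all genes), and KO451 in 0 (20.4% of all genes). These shares describe the 6 libraries and carry no test.

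Ccl8, with Ccl1 a mouse ligand of Ccr8, was the member with the largest difference, though at a handful of reads. It gave 5, 15 and 38 reads in KO451, KO452 and KO457 and 0, 0 and 5 reads in WT453, WT454 and WT455. KO451 and WT455 had the same number of reads, and only the scaling to 5.36 and 5.19 normalized counts kept the groups from overlapping. Fitted with limma, Ccl8 differed by 3.13 ± 1.03 (SE) on the log2 scale, with a limma adjusted p of 0.373 (0.0181 before adjustment). The FDR in the authors' deposited table is 0.128. Over the alternatives its log2 difference ranged from 1.21 to 5.30, and it was 2.46 without KO457. Ccl1 gave 7, 13 and 4 reads against 0, 5 and 9. Their receptor Ccr8, found on a subset of T cells, had 53.6, 36.0 and 60.3 normalized counts in the knockout and 12.4, 23.7 and 18.7 in the wild type. Every knockout library was above every wild-type library, with a log2 difference of 1.42 ± 0.47 (SE, limma adjusted p = 0.373).

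Monocyte-attracting ligands of Ccr2 were at the edge of detection. Ccl2 gave 0, 5 and 9 reads in the knockout and 15, 7 and 0 in the wild type, Ccl12 gave 0, 19 and 5 against 0, 6 and 0, and Ccl7 gave 3, 5 and 0 against 0 in all wild-type libraries. None of the 3 passed the test. The receptor Ccr2 was well covered, with 2229, 3453 and 4987 normalized counts in the knockout and 896, 2721 and 3063 in the wild type (log2 difference 0.79, limma adjusted p = 0.591).

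Ccl24, also called eotaxin-2, attracts eosinophils and basophils through Ccr3 and is a product of alternatively activated macrophages. It gave 0, 223 and 150 reads in KO451, KO452 and KO457 and 34, 125 and 396 reads in WT453, WT454 and WT455. The count of 0 in KO451 allows up to 0.0868 CPM, while the other libraries lay between 1.05 and 12.9 CPM. Ccl24 differed by -1.82 ± 2.05 on the log2 scale (SE, limma adjusted p = 0.764), and 0.70 without KO451. Ccr3 had 2627, 8175 and 5488 normalized counts in the knockout against 769, 2887 and 4232 in the wild type. In both groups the order of the libraries was alike for ligand and receptor, which is a description of 6 values.

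Homeostatic ligands, the organizers of white pulp, were scarce in all 6 libraries. Ccl19 gave 0, 11 and 0 reads in the knockout and 0, 5 and 7 in the wild type, and Ccl21a gave 0, 5 and 5 against 2, 0 and 0. The models of both overlap 4930578G10Rik on the other strand, and Ccl21a has near-identical copies to which reads may have been assigned, so its value is uncertain. Cxcl13 gave 4, 17 and 40 reads against 0, 15 and 7, with a log2 difference of 1.74 ± 1.19 (SE, limma adjusted p = 0.610), or 0.61 without WT453. By contrast their receptors were among the most abundant in the pathway. Ccr7 had 2410, 4462 and 2010 normalized counts in the knockout and 2146, 7825 and 6567 in the wild type, and Cxcr5 had 2957, 5536 and 2599 against 2267, 10141 and 8014. Both were lowest in the 2 knockout libraries KO451 and KO457 and in WT453, and neither passed the test (limma adjusted p = 0.607 and 0.691). B cell markers summed to 1399, 2951 and 1525 CPM in the knockout and 1505, 5039 and 3828 CPM in the wild type, in step with these receptors, and their part was not tested. Stromal markers Col1a1 and Col3a1 lay between 4.89 and 57.1 normalized counts in 5 libraries.

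Cxcl12, the ligand of Cxcr4 that retains stem cells, plasma cells and neutrophils in their niches, had normalized counts of 24.7, 41.0 and 79.0 in the knockout and 260, 15.5 and 39.5 in WT453, WT454 and WT455. Its high value was in WT453, where Col1a1 reached 2519 and Col3a1 1762.5. Of the stromal list, Col1a2, Pdgfrb, Lum, Dcn, Pdgfra and Pdpn were also highest there. In the same library Tcf21, Tlx1 and Madcam1 were at 0, and Thy1 and Cr2 were not highest. The part of these stromal genes in the Cxcl12 value was not tested. Over all libraries the log2 difference was -0.34 ± 1.004 (SE, limma adjusted p = 0.935), 0.77 without WT453 and 0.05 without KO451. Cxcr4 was the most abundant receptor, with 9975, 6491 and 8618 against 11457, 11558 and 11076. All knockout libraries were below all wild-type libraries, with a log2 difference of -0.46 ± 0.21 (SE, limma adjusted p = 0.485).

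Ccl25, which guides Ccr9-bearing cells to thymus and gut, had normalized counts of 87.9, 35.0 and 56.1 in the knockout and 176, 70.2 and 88.3 in the wild type (log2 difference -0.87 ± 0.51 SE, limma adjusted p = 0.549). Its model overlaps that of Elavl1. Ccl27a and Ccl28 bind Ccr10, the receptor of skin-homing and mucosal cells. Ccl27a ranged from 35.4 to 49.0 in the knockout and 32.2 to 91.7 in the wild type, overlaps Il11ra1 and has a near-identical copy, so that its reads are uncertain. Ccl28 gave 0 to 7 reads per library. Of the 7 homeostatic ligands 0 passed the test.

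Xcl1, made by NK and CD8 T cells for Xcr1-bearing dendritic cells, had normalized counts of 86.8, 218 and 161 in the knockout and 112, 194 and 322 in the wild type. The lowest library was KO451 and the highest WT455, and the groups overlapped (log2 difference -0.40 ± 0.50 SE, limma adjusted p = 0.794). Xcr1 had 323, 577 and 430 against 169, 386 and 359. Cx3cl1, a membrane-bound chemokine of endothelium, gave 0, 22 and 10 reads in the knockout and 5, 3 and 11 in the wild type.

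**Figure D4:**
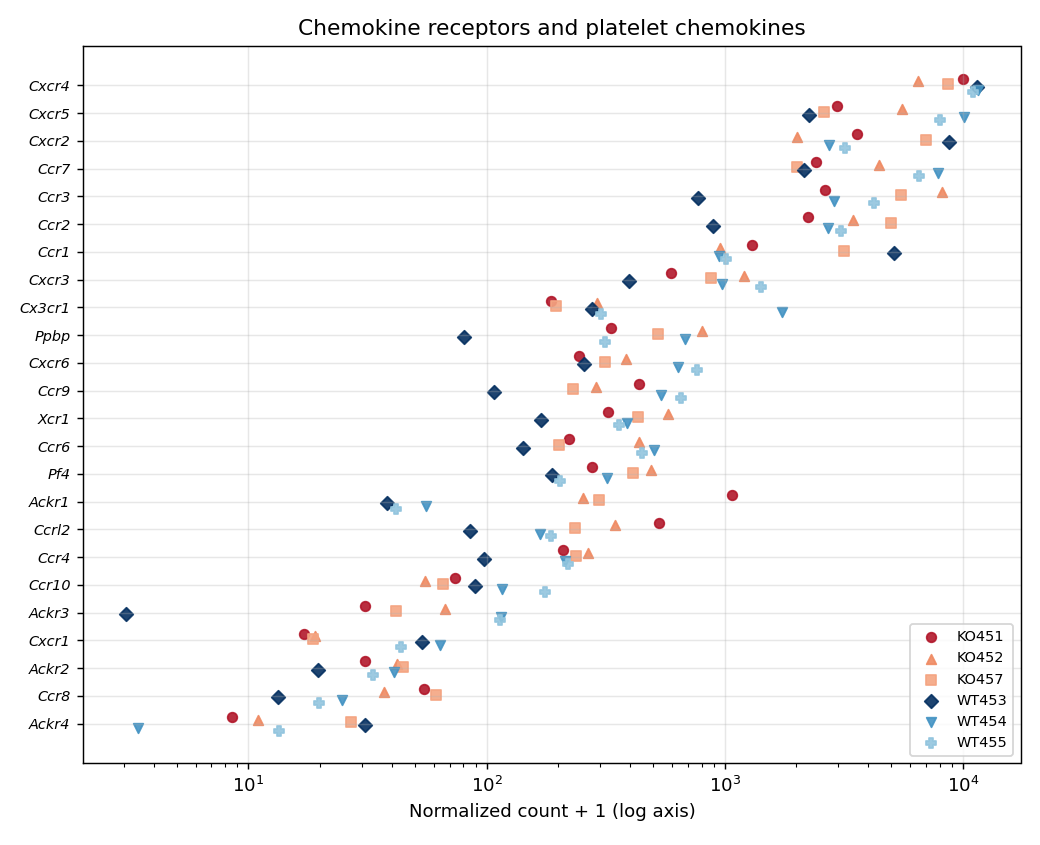
Normalized count plus 1 (log axis) of 17 chemokine receptors, 5 atypical receptors and the platelet chemokines Pf4 and Ppbp, with a point per library. Ackr1, Ccrl2 and Ccr8 are higher in every knockout library than in every wild-type library, and Cxcr1, Ccr10 and Cxcr4 lower. Groups without overlap were seen in 22.2% of the 18 signalling receptors measured and 40% of the 5 atypical ones, against 19.5% of all genes tested.

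On the receiving side, the atypical receptor Ackr1 had the smallest limma p of the receptor and input lists. Ackr1 is the Duffy antigen, which binds CC and CXC chemokines on red cells and on venular endothelium. It had normalized counts of 1074, 254 and 295 in the knockout and 37.1, 54.7 and 40.5 in the wild type. The lowest knockout library was far above the highest wild-type library. Limma gave a log2 difference of 3.28 ± 0.57 (SE) with an adjusted p of 0.344 (6.26e-04 before adjustment), which did not pass the test, and the FDR in the authors' deposited table is 1.09e-07. Without KO451 the difference was 2.63. Erythroid markers moved with it: 9 of 9 measured were higher in every knockout library than in every wild-type library, against 9.54% of all genes tested, with a median log2 difference of 2.78, and 0 passed the test. Their sum was 8394, 2038 and 2452 CPM in the knockout against 464, 572 and 1063 CPM in the wild type. None was at 0 in any library. Of these 9 markers, 7 are listed as higher at an FDR below 0.05 in the authors' deposited table, against 2.14% of all genes. Alas2 and Tfrc, at 0.0579 and 0.0880, are not. Endothelial markers summed to 166 to 265 CPM in the knockout and 138 to 261 CPM in the wild type. Of 7 tested, 5 were higher and 2 lower on average in the knockout, with a median log2 difference of 0.74, and 0 passed the test. Vwf and Stab2 (log2 differences 0.94 and 1.07) were higher in every knockout library, or 28.6% of the 7, against 9.54% of all genes tested. Emcn was at 0 in 5 libraries. What part the red cell and endothelial genes have in the Ackr1 values was not tested.

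**Figure D5:**
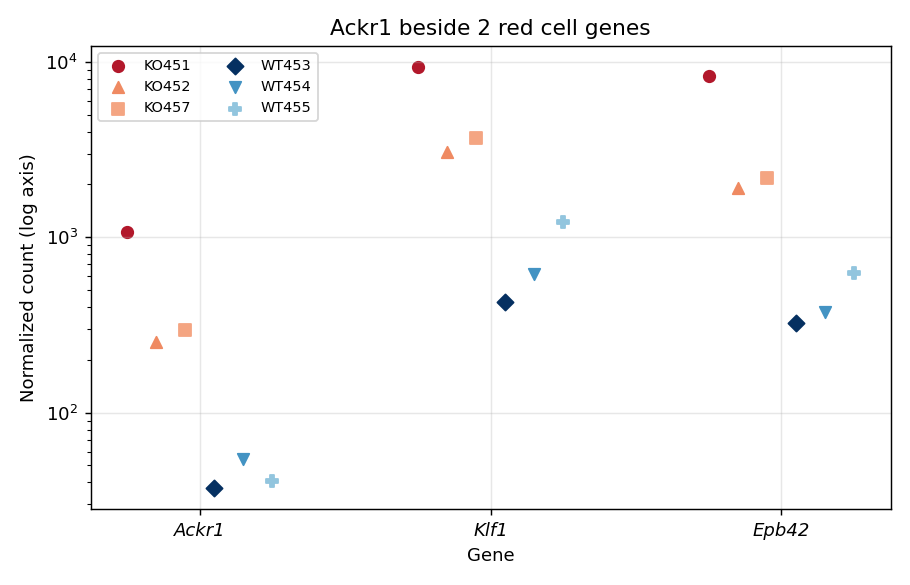
Normalized count (log axis) of Ackr1 and of the red cell genes Klf1 and Epb42, with a point per library. All 3 genes are highest in KO451 and higher in every knockout library than in every wild-type library.

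The other atypical receptors were less distinct. Ccrl2, which binds the attractant chemerin on activated leukocytes, had 527, 346 and 235 normalized counts in the knockout and 84.5, 166 and 186 in the wild type, without overlap (log2 difference 1.34 ± 0.43 SE, limma adjusted p = 0.373), and the FDR in the authors' deposited table is 0.0402. Ackr2, Ackr3 and Ackr4 overlapped between the groups. Of 5 atypical receptors 0 passed limma's test and all 5 were higher on average in the knockout. Ackr1 and Ccrl2 are past that FDR threshold in the authors' deposited table, which lists 2.14% of all genes as higher at that FDR.

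Among the 18 signalling receptors 0 passed the test, 6 were higher and 12 lower in the knockout, and the median log2 difference was -0.22. Groups without overlap were seen in 1 higher and 3 lower receptors, or 22.2%, near the 19.5% of all genes tested. Cxcr1 alone is past the FDR threshold in the authors' deposited table (0.0189), where 1.44% of all genes are listed as lower. It had 16.1, 18.0 and 17.7 normalized counts in the knockout and 52.6, 62.8 and 42.6 in the wild type, with no overlap and close agreement within each group (log2 difference -1.54 ± 0.42 SE, limma adjusted p = 0.344). Of the 10 neutrophil markers 8 were higher and 2 lower on average in the knockout, and 0 passed the test. Only Csf3r was without overlap, or 10% of the list, against 19.5% of all genes tested. Csf3r was lower in the knockout, with 3855, 3053 and 4388 normalized counts against 12090, 6825 and 5928 (log2 difference -1.08, limma adjusted p = 0.349). Its FDR in the authors' deposited table is 0.0112. Cxcr1 and Cxcr2 both bind neutrophil-attracting chemokines, and Cxcr2 overlapped between the groups (-0.19 ± 0.57 SE, limma adjusted p = 0.934). Ccr10 had 72.9, 54.0 and 64.4 against 88.6, 115 and 175 (-0.93 ± 0.38 SE, limma adjusted p = 0.445), again without overlap.

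Platelet chemokines and the lymphotoxin inputs complete the pathway. Pf4 and Ppbp, stored in platelet granules, were higher on average in the knockout with log2 differences of 0.73 and 1.01, and the groups overlapped for each (limma adjusted p = 0.490 and 0.649). Ppbp had 331, 799 and 526 normalized counts against 79.4, 679 and 313. Lymphotoxin and tumour necrosis factor induce the stromal chemokines of white pulp. Of 10 genes on that list 0 passed the test, 9 were lower on average in the knockout, and the median log2 difference was -0.32. The highest gene of the lymphotoxin list was the receptor Tnfrsf1b, with 5571, 6842 and 5570 against 5474, 6908 and 7458 (log2 difference -0.14, limma adjusted p = 0.840). Ltb, which encodes lymphotoxin beta, had 4813, 6458 and 3939 normalized counts in the knockout against 5359, 8390 and 7782 in the wild type (log2 difference -0.50, limma adjusted p = 0.526).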

How the data were processed

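The authors deposited 1 table with a log2 value per gene and library, group means, and their own log2 fold change, p-value and FDR. Tools listed in the submitters' processing notes, with no role given, are STAR 2.5.3a, StringTie 1.3.1c, FastQC 0.11.5 and DESeq, and the build is GRCm38. How reads were counted, with which strand option and filters, is not given in the sources used here. Per the labels, libraries were of mRNA from total spleen RNA. Knockout column names carry a suffix that wild-type ones lack, whose meaning is not stated, so that any separate handling cannot be told apart from genotype. From the values, each deposited log2 value is log2(reads divided by a size factor, plus 1): 100% gave whole reads within 0.001. How the deposited p-values were computed is not stated.

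Limma 3.58.1 (R 4.3.3) with an intensity trend compared 3 knockout with 3 wild-type libraries over the 22071 genes with a mean normalized count of at least 1, leaving out 4381. On simulated data with 22071 genes, limma called 7.46% of genes changed 2-fold, 73.1% changed 4-fold, 92.4% changed 16-fold and 2 unchanged genes. Only genes with a mean normalized count above that of Cxcl13 were changed, so these shares do not cover Ccl8 and other low ligands. Each simulated gene had the median spread of genes of similar level, so genes with a wider spread are not covered either. On the log2(value + 1) scale the change of low genes is understated. The members and lists were chosen with earlier results of these data known. Per-library values follow a rule: members with a mean of at least 100 or an unadjusted limma p or authors' FDR under 0.05, pathway genes under the same p or FDR, their receptors, and the highest member of each list. Other members and genes given per library were named after their values were seen, and receptor groups follow textbook pairings. Alternatives were the pseudocount, filter, scaling, test and each library left out. Positions and exon lengths are from GENCODE M21 (GRCm38), where all 30 members were found. Some genes that the rule or lists name are not reported here.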

Additional observations from a re-analysis of the deposited data

How the results depend on the processing

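No chemokine ligand was called in any of the 14 alternatives, with smallest adjusted limma p between 0.190 and 0.690. The filter of a mean of at least 1 CPM left 15 ligands to test, without Ccl8, and the other alternatives tested 27 to 30. The number of genes called over all genes was 2; it was 1 with a pseudocount of 10, 1 with limma voom on recovered reads, 3 with total-count scaling, 10 without an intensity trend, and 0 to 2 when a library was left out (0 without KO451, KO452, KO457, WT454 or WT455). Total-count scaling and voom moved the median of all genes to -0.17 from -0.03, and the ligands' median to -0.34. The ligands' median was -0.28 to 0.24 with a library left out, above 0 only without KO451. Of 22 ligands and pathway genes followed, 12 values changed sign against 293 that kept it. With a library left out, Cxcl2 ranged from -1.89 to 2.24 (0.12 without KO451, 0.05 without KO452, 2.24 without WT453), Cxcl12 from -1.22 to 0.77 (0.05 without KO451, 0.77 without WT453), Ccl24 from -3.20 to 0.70 (without KO451), Cxcl9 from -0.10 (without WT453) to 1.28, Ccl6 from -0.53 to 0.028 (without WT455), and Cxcl10 from -0.22 (without KO452; -0.02 without WT453) to 0.66. Cxcl2 was also 0.89 with a pseudocount of 0.1 and 0.21 with voom. The cause was not tested. Depth limits 15 ligands with a mean normalized count under 30. No paired analysis was possible because the groups share no replicate numbers.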

Other observations

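Cx3cr1, the receptor of Cx3cl1 on patrolling monocytes, had 1745 normalized counts in WT454 and between 185 and 302 in the other 5 libraries. This gene was singled out after its values were seen.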
